A study of Mus musculus with 4 samples.

Results

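The genes described here are 10 components of the Notch pathway, namely the receptors *Notch1*, *Notch2* and *Notch3*, the ligands *Dll1*, *Dll4*, *Jag1* and *Jag2*, the nuclear partner *Rbpj*, and the transcription factors *Hes1* and *Hes6*. They were chosen by name, from the gene column of the array files, and 15 of the 41174 gene probes carry 1 of these names, which makes 10 of 27343 genes. The data come from 4 dual-color microarrays of the mouse transcriptome, on which 2 RNAs labelled with Cy3 and Cy5 compete for the same spots, so each value is a ratio of 2 samples. In the first experiment, distal colon RNA of *Rspo3* KO mice was hybridised against that of control mice, with 1 mouse per channel, the dyes reversed between the arrays and 2 pairs of mice in all (n = 2). In the second, Axin2+ epithelial cells were hybridised against Axin2- cells on 2 arrays with reversed dyes. All mice were C57BL/6, were 6 to 8 weeks old and male according to the methods, and had received tamoxifen at 4 mg per 25 g of body weight.

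The *Rspo3* KO mice were Myh11CreErt2/Rspo3 fl/fl animals taken 2 weeks after tamoxifen, and the controls were their Myh11CreErt2/Rspo3+/+ littermates, which carry the same inducible Cre. The deletion is therefore limited to cells that express *Myh11*, a gene of smooth muscle and myofibroblasts, and Rspo3 made by other cells is left in place. The sorted cells came from Axin2CreErt2/Rosa26-tdTomato mice 24 h after tamoxifen and were gated on DAPI and on the epithelial antigen ESA. Axin2+ cells are those in which the Cre driven by the Wnt target *Axin2* had switched on tdTomato, and Axin2- cells are the tdTomato-negative cells of the same mice. Each of these pools held cells of 3 mice, and both arrays hold the same 2 pools, so this experiment is 1 replicate and its differences have no p-value.

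Notch is a receptor that is cut when a ligand on a neighbouring cell binds it. The freed intracellular part enters the nucleus and joins Rbpj, which switches target genes such as *Hes1* from repressed to active. In the intestinal crypt, Notch keeps stem and progenitor cells from becoming secretory cells, in part because Hes1 represses *Atoh1*, while cells that turn secretory present the ligands Dll1 and Dll4 to their neighbours. Notch3 and Jag1 are also known from blood vessels and their mural cells.

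Of the sequences below, a measured ratio rests on the *Hes1* probe alone, and the promoter sequences are shown as description. The *Hes1* array probe is the 60-base oligonucleotide through which this main effector was measured. It is listed at chr16:30065983-30066278 on the plus strand of mm9, a span of 296 bases, so that 236 genomic bases lie between its ends beyond its own length and it crosses an intron. Read from its first base it holds no stop codon, and it lies in the coding sequence of the helix-loop-helix domain.
Hes1 probe: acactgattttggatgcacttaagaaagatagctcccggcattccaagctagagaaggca

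The other sequences are the 250 bases before the transcription start of *Notch1*, *Notch2* and *Rbpj*, from RefSeq's table for GRCm38.p6. The *Notch1* and *Notch2* stretches belong to the receptors that stood highest among the members in Axin2+ cells, and *Rbpj* is the member whose promoter holds the core of the sequence that Rbpj binds, TGGGAA, searched on both strands and given in capitals. The *Notch1* stretch is chr2:26503823-26504072 on the minus strand, that of *Notch2* is chr3:98013288-98013537 on the plus strand, and that of *Rbpj* is chr5:53590096-53590345 on the plus strand.
Notch1 promoter: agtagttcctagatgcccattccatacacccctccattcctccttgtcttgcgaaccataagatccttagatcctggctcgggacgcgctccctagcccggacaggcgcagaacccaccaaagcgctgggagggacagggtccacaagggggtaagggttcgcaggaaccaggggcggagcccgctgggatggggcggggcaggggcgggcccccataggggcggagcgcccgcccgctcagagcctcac
Notch2 promoter: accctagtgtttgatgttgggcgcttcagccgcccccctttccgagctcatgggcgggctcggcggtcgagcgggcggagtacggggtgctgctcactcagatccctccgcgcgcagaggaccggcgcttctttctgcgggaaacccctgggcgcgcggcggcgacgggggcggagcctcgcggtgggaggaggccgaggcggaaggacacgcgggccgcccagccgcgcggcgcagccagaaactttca
Rbpj promoter: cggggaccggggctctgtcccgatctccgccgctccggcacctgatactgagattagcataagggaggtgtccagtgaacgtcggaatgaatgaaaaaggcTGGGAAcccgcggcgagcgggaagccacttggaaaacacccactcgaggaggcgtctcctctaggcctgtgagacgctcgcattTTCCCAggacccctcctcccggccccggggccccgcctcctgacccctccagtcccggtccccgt

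*Rbpj* has 2 matches in this window, which begin 149 and 65 bases before the start, on opposite strands. The 9 members with an entry in the table have 12 windows, of which 2, both of *Rbpj*, hold a match (16.7%), and 21.6% of the 32851 promoter windows in the table hold one. The other *Rbpj* window, chr5:53590236-53590485, overlaps the one shown, and its 1 match is the TTCCCA already given there. The table has no entry for *Hes1*. The windows of the 2 receptors are rich in G and C, at 66.0% for *Notch1* and 72.0% for *Notch2*. A match is a description of the letters and not a measured binding site.

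The labels were checked on genes with known behaviour. Both *Rspo3* probes were near background. One of them was not well above it in any channel of either colon array, and the other only in both channels of pair 2, so these arrays do not show the deletion itself. *Lgr5*, the stem cell receptor for R-spondins, was well above background in both control mice and in neither KO mouse. Against the higher of its own signal there and the lowest signal well above background, it was at least 3.85-fold lower in KO mice (limma's adjusted p = 0.0996). In Axin2+ over Axin2- cells its mean log2 ratio was 1.53. The other *Lgr5* probe stayed at background on all 4 arrays. *Axin2* had log2 ratios of 1.35 and 1.30 on the arrays of the sorted cells. Of 10 endothelial markers, 5 were never well above background in the sorted cells, among them *Pecam1* and *Cdh5*. Of 10 smooth muscle and pericyte markers 4 were not, among them *Myh11* and *Des*. The summed smooth muscle and pericyte level was 8980 and 7318 in Axin2+ against 6562 and 6601 in Axin2- cells. Of the 5 such markers measured, 1 was higher on both arrays, 2 were lower and 2 had opposite signs. Of 10 fibroblast markers 4 were never well above background, and the list summed to 1002 and 1015 in Axin2+ against 1192 and 1280 in Axin2- cells. Of 10 immune markers only *Adgre1* was never above it in the sorted cells, and the summed immune level was 1321 and 1347 in Axin2+ against 1701 and 1735 in Axin2- cells. Between 53.1% and 60.3% of the gene spots of a channel were well above background. Over all genes, none of them an independent replicate, the log2 ratios of both arrays correlated with Pearson's r of 0.92 in the dye swap of 1 pair of pools and of 0.033 in the 2 pairs of mice.

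**Figure D1:**
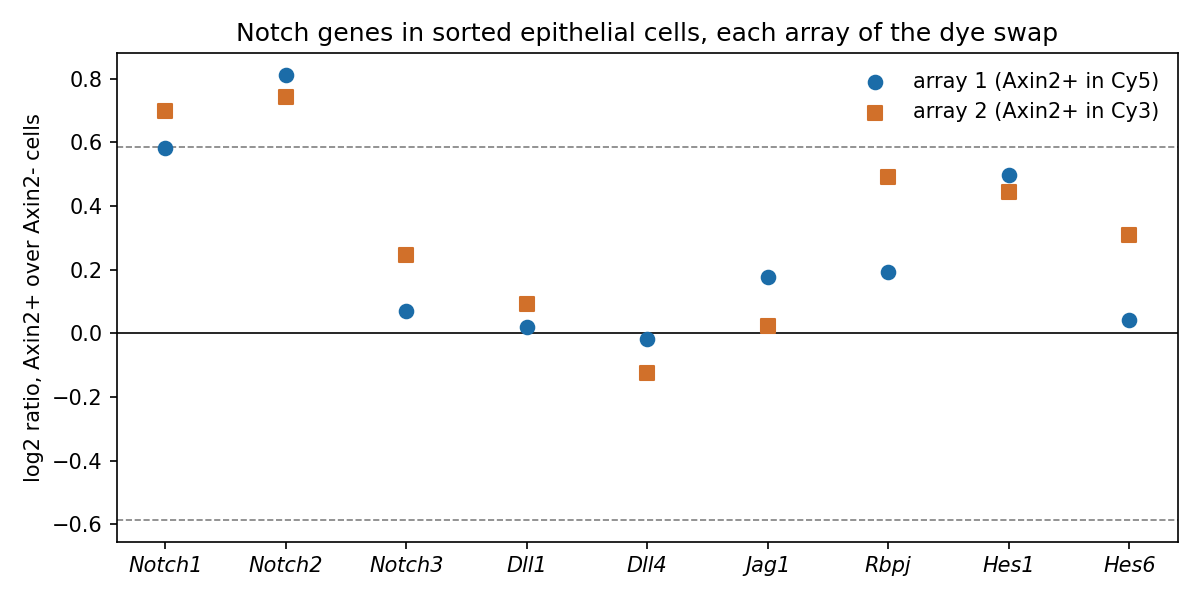
Log2 ratio of Axin2+ over Axin2- cells for the 9 members measured, with a circle for array 1 and a square for array 2 of the dye swap, and dashed lines at 1.5-fold. *Notch2* and *Notch1* stand above the upper line by their means, *Hes1* just under it, and the ligands lie near 0.

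In the sorted epithelium, the receptors *Notch1* and *Notch2* were higher in Axin2+ than in Axin2- cells, by 1.56-fold and 1.71-fold in the mean of both arrays, and the ligands were nearly level. *Hes1* and *Rbpj* lay on the same side as the receptors, at 1.39-fold and 1.27-fold. Of the 9 members measured, 8 had a positive log2 ratio on both arrays and 1, *Dll4*, a negative one, where 41.1% of all genes were positive and 41.7% negative on both. A gene was counted as changed here when its mean was past 1.5-fold (0.585 on the log2 scale) with the same sign on both arrays, which 2 of the 9 members met, both higher. Over all 15880 genes measured, 7.87% were past this line as higher and 6.92% as lower. The median over the members was 0.18, against -0.0049 for all genes. With median centring in place of loess, which leaves dye differences that vary with brightness, 2 of the 9 were positive on both arrays and *Notch2* alone was past 1.5-fold with 1 sign, while the means of *Notch1* (0.73) and *Notch2* (0.83) stayed above that line.

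Notch1 is the receptor best known from intestinal progenitors. On array 1 its level, a background-corrected intensity to which an offset of 50 had been added, was 363 in Axin2+ and 243 in Axin2- cells. On array 2 it was 323 in Axin2+ and 199 in Axin2- cells. After loess, the Axin2+ pool was the brighter of the 2 on both arrays, while with median centring the log2 ratio of array 2 was -0.049. The log2 ratios were 0.58 and 0.70, and 6.44% of all genes had a larger mean ratio.

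The *Notch1* probe, at chr2:26314772-26314830 of mm9 on the minus strand, is printed 10 times on each array, so its spot-to-spot error can be read directly. On array 1, where 2 of the spots were outliers, the log2 ratios of the remaining 8 spots ran from 0.46 to 0.64 (SD 0.065). On array 2 the 10 spots ran from 0.58 to 0.79 (SD 0.066). After loess, no spot of this probe lay near 0 on either array. A second *Notch1* probe, which begins at the base where the first ends, gave 0.57 on both arrays.

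Notch2 acts beside Notch1 in the crypt. Its brightest probe, at chr3:97953914-97953973, had a level of 317 in Axin2+ cells against 181 in Axin2- cells on array 1. On array 2 it had 317 against 189. These log2 ratios of 0.81 and 0.74 were the highest among the members, and 3.78% of all genes had a larger mean. The other 2 *Notch2* probes were dim and showed no such difference: one, at chr3:97951205-97951264, gave -0.14 and 0.14, and the other, at chr3:97952843-97952902, gave 0.0024 and 0.10 with no channel above background on array 2. The value of *Notch2* thus rests on 1 of its 3 probes, and the mean over the 2 probes that passed the filter on dim probes was 0.39, short of 1.5-fold.

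*Notch3*, a receptor of vascular mural cells, was close to background in the sorted epithelium, with levels of 93.0 and 88.5 on array 1 and 103 and 86.8 on array 2 in Axin2+ and Axin2- cells. Its log2 ratios were 0.072 and 0.25. With the ratios of the extraction software, they were 0.47 and 0.72, and the mean of these, 0.60, is past 1.5-fold. An offset of 16 gave a mean of 0.27 and no background correction 0.21, and which step of the software sets the larger value was not tested.

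Among the ligands, *Dll1* gave log2 ratios of 0.019 and 0.093 in Axin2+ over Axin2- cells. Its probe also has 10 spots per array, and on array 1 these ran from -0.11 to 0.13 (SD 0.073), on both sides of 0. *Dll4* gave -0.017 and -0.13. *Jag1* gave 0.18 and 0.023 with its brighter probe, and the dimmer one gave -0.0079 and -0.068. Each of the 3 ligands was thus within 0.18 of 0 on both arrays. *Jag2* was not measured, since its probe was well above background only in the Axin2+ channel of array 1.

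*Rbpj*, the DNA-binding partner of the cleaved receptor, had levels of 201 and 176 in Axin2+ and Axin2- cells on array 1 and of 236 and 168 on array 2. The log2 ratios after loess, 0.19 and 0.49, had 1 sign but differed by 0.30, the most of any member between the arrays of the dye swap.

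*Hes1*, measured by the probe printed above, had levels of 500.0 and 354 on array 1 and of 545 and 400.5 on array 2. Its log2 ratios, 0.50 and 0.45, differed by 0.052, the least of any member, and 11.7% of all genes had a larger mean. *Hes6*, known to counteract Hes1, had log2 ratios of 0.043 and 0.31 with one probe and -0.032 and -0.14 with the other, at chr1:93308264-93308323 and chr1:93309308-93309367, so its direction was not the same for both probes.

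Markers of several cell types moved with these ratios. Of 10 stem cell markers, 9 were higher on both arrays in Axin2+ cells, with a median log2 ratio of 1.09, and of 10 proliferation markers all were, with a median of 0.78. Of 10 goblet cell markers, 9 were lower, with a median of -1.17, of 10 enteroendocrine markers all were, with a median of -2.09, and of 10 surface enterocyte markers 9 were, with a median of -2.53. The summed level of the stem cell list was 13797 and 13253 in Axin2+ against 6740 and 6709 in Axin2- cells, and that of the surface enterocyte list 112860 and 111398 against 287190 and 260015. In pooled cells and in tissue, fewer cells of a type and less RNA per cell cannot be told apart, and the part of these cell types in the receptor ratios was not tested.

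**Figure D2:**
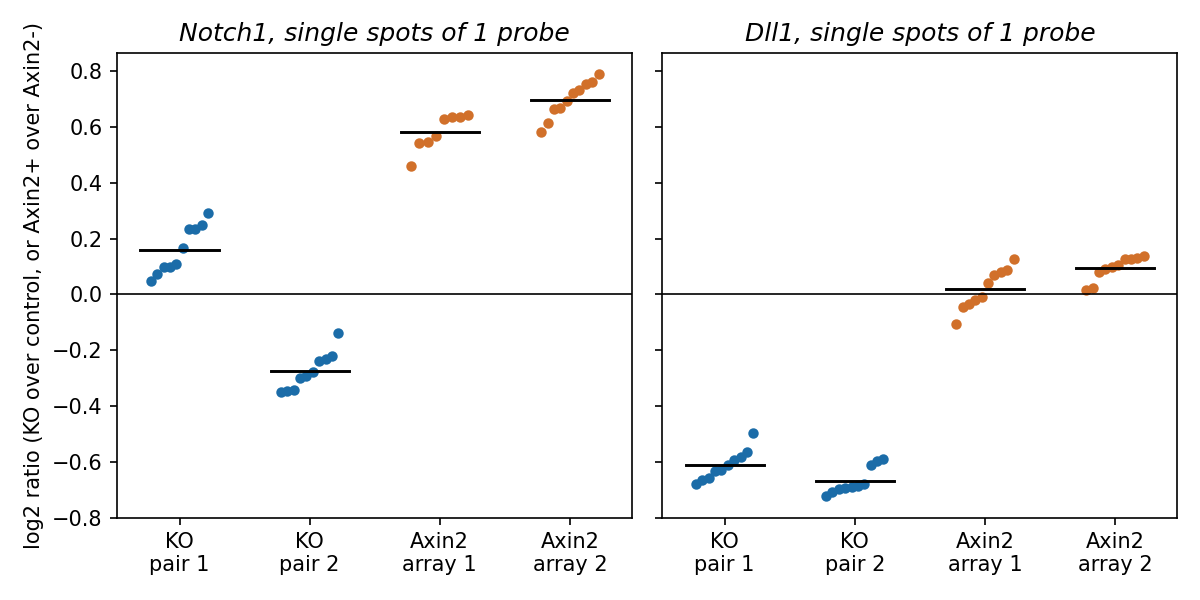
Log2 ratio of every single spot of the *Notch1* probe (left) and the *Dll1* probe (right) on the 4 arrays, KO over control in blue and Axin2+ over Axin2- in orange, with the mean of the spots as a bar. The *Notch1* spots lie above 0 in pair 1, below 0 in pair 2 and far above 0 on both arrays of sorted cells, and the *Dll1* spots lie between -0.72 and -0.50 in both pairs of mice and around 0 in sorted cells.

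In the colon of *Rspo3* KO mice, the ligand *Dll1* was lower in both pairs, by 1.56-fold, and the other members showed no difference of that size in both. *Dll1* was the only member past 1.5-fold with 1 sign in both pairs, where 2.47% of all 15373 genes were past this line as lower and 1.85% as higher. With limma, which borrows the spread of all genes to test 2 pairs, 0 of the 10 members passed an adjusted p of 0.05, against 37 genes or 0.241% overall. Without adjustment 1 member, *Dll1*, had a p under 0.05. Of the 10 members, 2 were higher in both pairs, 3 were lower in both, and 5 had opposite signs. Over all genes these shares were 20.3%, 23.9% and 55.8%, close to those of the members.

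Dll1 marks early secretory cells of the crypt. Its level was 612 in the KO mouse and 935 in the control mouse of pair 1. In pair 2 it was 495 in the KO and 786 in the control mouse. Both KO mice were below both control mice. The log2 ratios were -0.61 and -0.67, with a mean of -0.64 ± 0.040 (SD, n = 2) and an interval from limma of -1.17 to -0.11. The limma p was 0.024 and the adjusted p 0.83. The mean was short of 1.5-fold with median centring, at -0.57, and with all spots in the background fit, at -0.45.

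The probe, at chr17:15504623-15504682 of mm9 on the minus strand, gave 10 spots per array. They ran from -0.68 to -0.50 in pair 1 (SD 0.055) and from -0.72 to -0.59 in pair 2 (SD 0.049), so the spots of an array lay close together. This spread leaves out errors of dye, background and normalisation that all spots share, and n stays at 2 pairs. By mean ratio, 2.09% of genes were lower than *Dll1*. In the same pairs 8 of 10 stem cell markers were lower in both, with a median log2 ratio of -0.65, 2 of 6 goblet cell markers measured were, with a median of -0.020, and 6 of 9 enteroendocrine markers measured were, with a median of -0.30. Summed over the list, stem cell markers stood at 12017 and 11801 in KO mice and at 19237 and 17919 in controls. Of 8 immune markers measured, 4 were lower in both pairs and 3 higher, with *Ms4a1* at -2.75 and -2.27. Fibroblast markers summed to 137072 and 150346 in KO mice and to 117215 and 121922 in controls. The part of these lists in the *Dll1* ratio was not tested.

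**Figure D3:**
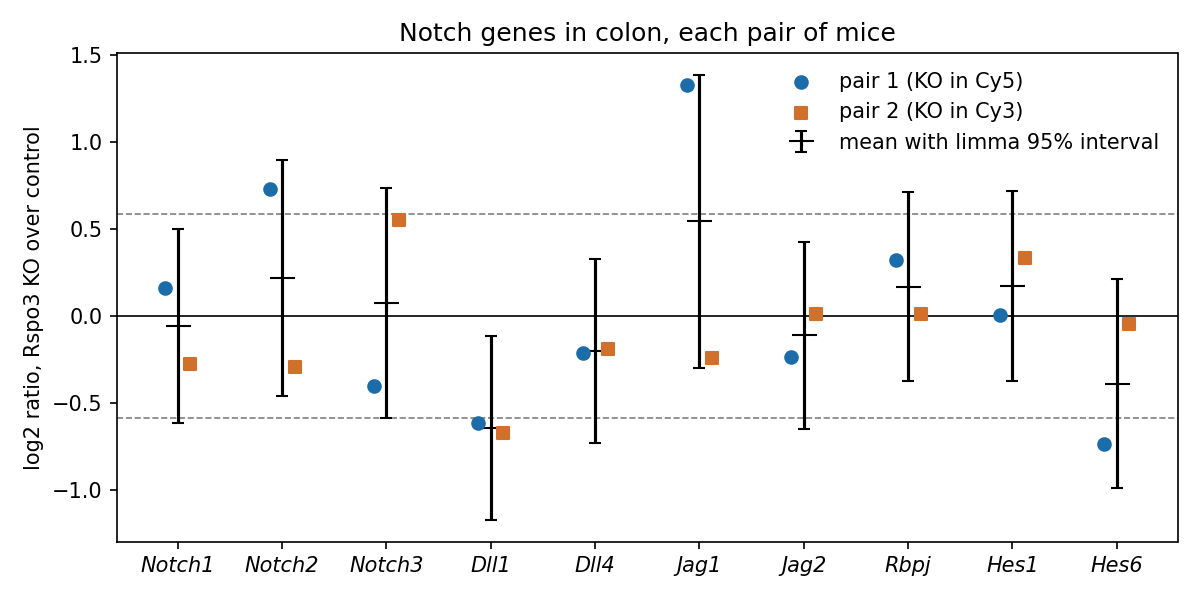
Log2 ratio of *Rspo3* KO over control for the 10 members, with a circle for pair 1, a square for pair 2, a bar with its 95% interval from limma for the mean, and dashed lines at 1.5-fold. The interval of *Dll1* is the only one that leaves out 0, and *Jag1*, *Notch2*, *Notch3* and *Hes6* spread widely between the pairs.

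The other ligands did not follow *Dll1*. *Dll4*, known from endothelium and secretory cells, gave -0.21 and -0.19, with a mean of -0.20 ± 0.017 (SD, n = 2) and an interval of -0.73 to 0.33. It lay lower in both pairs by less than 1.5-fold. *Jag1* gave 1.33 in pair 1 and -0.24 in pair 2, with an interval of -0.29 to 1.38, and *Jag2* gave -0.23 and 0.013. The levels of *Jag1* in this processing were 785 in KO and 313 in control of pair 1, and 887 in KO and 1047 in control of pair 2, so that 1 control mouse stood apart from the other 3 mice. With all spots in the background fit the mean of *Jag1* was 0.066, against 0.54 here. The second *Jag1* probe was not above background in any channel of these arrays and cannot bear on it.

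The 3 receptors each changed sign between the pairs. *Notch1* gave 0.16 and -0.27, and its 10 spots lay from 0.047 to 0.29 in pair 1 and from -0.35 to -0.14 in pair 2. The spots of the 2 pairs did not overlap, which puts the change of sign outside the spot error. The second *Notch1* probe did the same, at 0.084 and -0.40. *Notch2* gave 0.73 and -0.29, and *Notch3* gave -0.40 and 0.55. With all spots in the background fit the mean of *Notch2* was 0.016, against 0.22 here.

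For *Notch2* the levels were 980.4 in KO against 591 in control in pair 1 and 840.3 against 1028 in pair 2. For *Notch3* they were 517 against 682 and 633 against 431. Neither receptor separated KO from control mice. Endothelial markers summed to 8097 in KO against 10160 in control in pair 1 and to 10418 against 7077 in pair 2, but the single markers were split: *Kdr* gave 0.78 and -0.19, *Egfl7* gave -0.67 and 0.39, and *Pecam1* was positive in both pairs. Smooth muscle and pericyte markers summed to 113809 against 97231 and to 120753 against 112804, higher in the KO mouse of both pairs. Proliferation markers summed to 58395 against 86768 and to 68473 against 49610. The part of these in the receptor ratios was not tested.

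*Rbpj* gave 0.33 and 0.013 and *Hes1* gave 0.0079 and 0.34, the 2 members with a positive ratio in both pairs. Their limma intervals, -0.37 to 0.71 for *Rbpj* and -0.37 to 0.72 for *Hes1*, include 0 and changes past 1.5-fold. *Hes6* gave -0.73 and -0.042, and its second probe -0.14 and 0.045, so most of its mean came from 1 probe in 1 pair. Apart from *Dll1*, every member had an adjusted p of 0.9997 with limma.

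**Figure D4:**
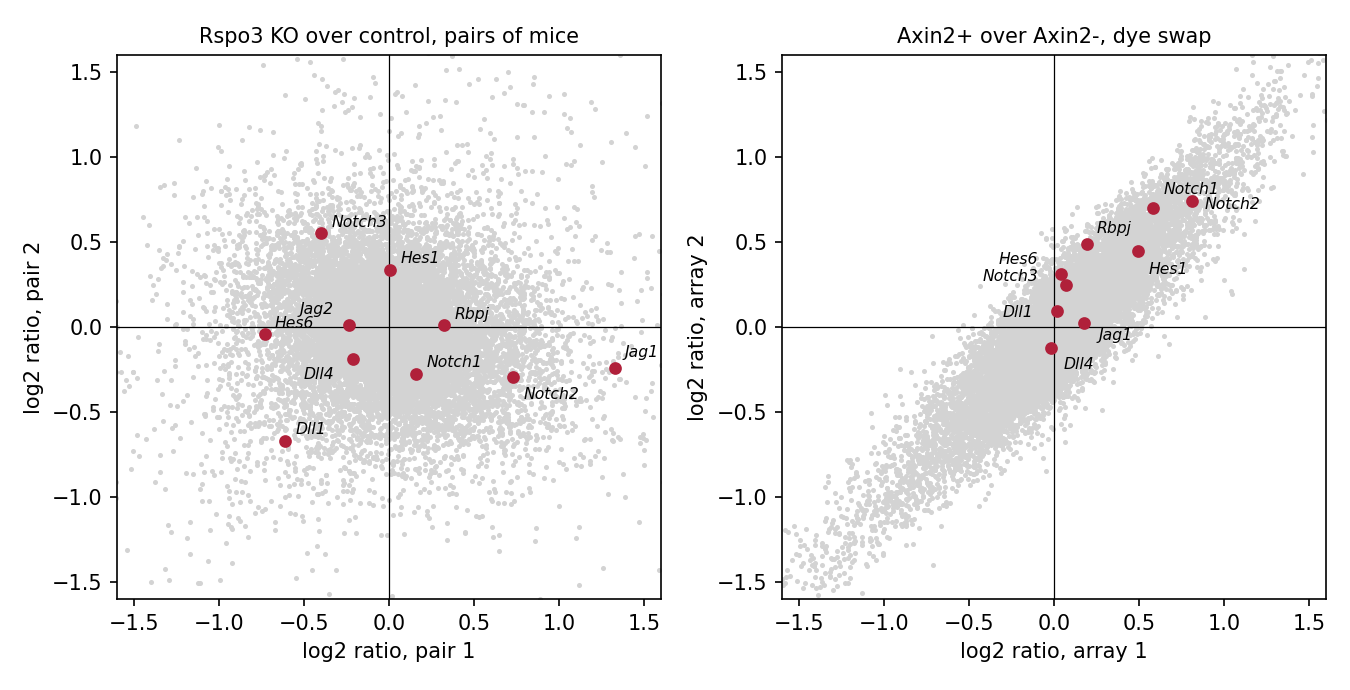
Log2 ratios of the members (red, named) and of all genes measured (grey) on both arrays of each experiment, pair 1 against pair 2 of *Rspo3* KO over control on the left and array 1 against array 2 of Axin2+ over Axin2- on the right. Genes beyond the plotted range are not drawn. The members follow the diagonal in the dye swap, and in the pairs of mice *Dll1* lies in the lower left while *Jag1*, *Notch2* and *Notch3* lie off it.

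After loess, the arrays of 1 experiment differed far more between pairs of mice than between the arrays of the dye swap. For the members, the median absolute difference between arrays was 0.38 for the 2 pairs and 0.12 for the dye swap, and over all genes it was 0.35 and 0.12. The largest such difference among the members was 1.57, for *Jag1* between pairs, against 0.30 in the dye swap. *Notch2* differed by 1.02 between the pairs and by 0.068 in the dye swap with the same probe. With median centring in place of loess, the 2 arrays of the dye swap were far apart, at 1.66 and 0.013 for *Notch2*. *Dll1* differed by 0.056 between the pairs. In the colon experiment each dye order holds 1 pair, so dye and pair cannot be told apart for a single gene.

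The 2 experiments share no samples, and their values for the members can be set side by side. *Dll1* was at -0.64 in KO over control and at 0.056 in Axin2+ over Axin2- cells. *Notch1* was at -0.057 and 0.64, *Notch2* at 0.22 and 0.78, *Hes1* at 0.17 and 0.47, and *Rbpj* at 0.17 and 0.34. No member was past 1.5-fold in both experiments. The colon RNA was not sorted, and levels were normalised apart in each experiment.

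**Figure D5:**
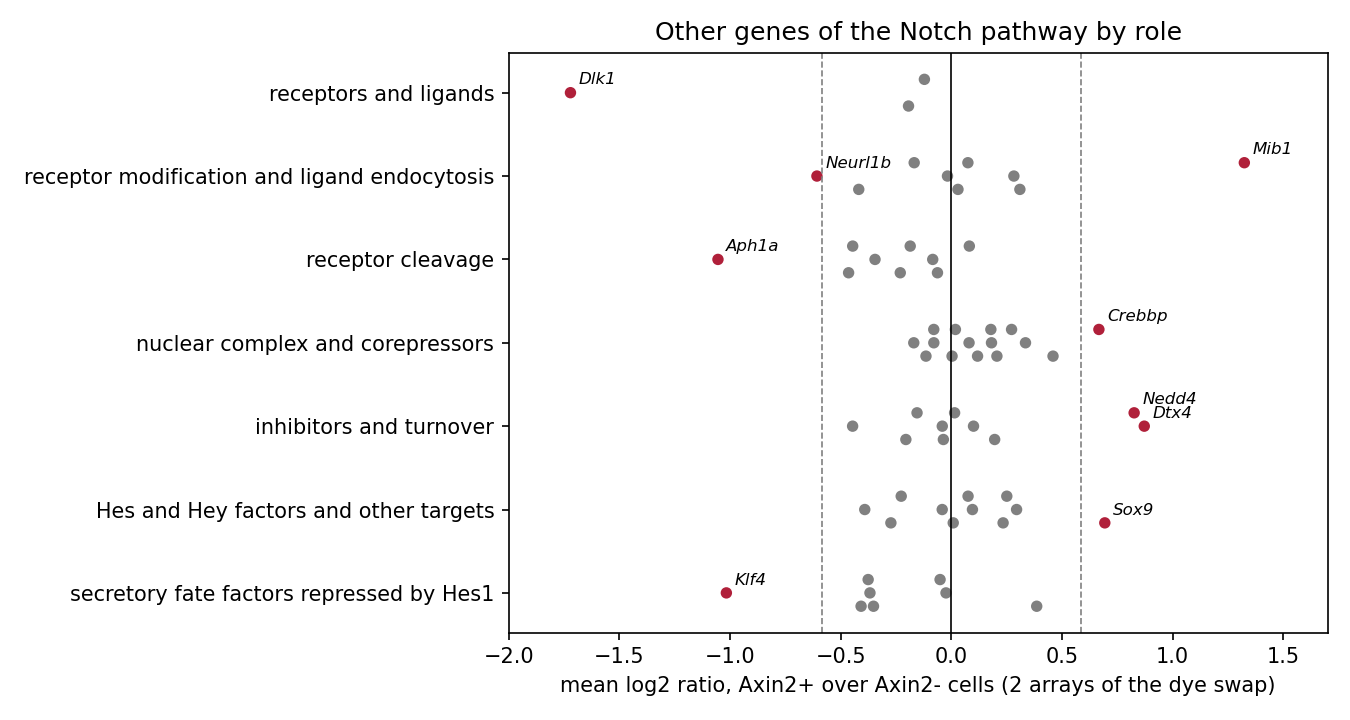
Mean log2 ratio of Axin2+ over Axin2- cells for 65 other genes of the Notch pathway, grouped by role, with dashed lines at 1.5-fold and genes past it with 1 sign on both arrays in red. The 5 genes drawn past the upper line lie in 4 roles and the 4 past the lower line in 4 roles.

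Around the members, 79 other genes of the pathway had been listed by role, of which 66 were measured in the sorted cells. Of these, 6 were higher past 1.5-fold alike on both arrays and 4 were lower, beside the 7.87% and 6.92% over all genes, and the median over the list was -0.030. These counts, and the signs per role given below for the sorted cells, are after loess. With median centring 3 of the listed genes were past 1.5-fold in place of 10, and signs per role are not given for it. Among the genes that modify receptors or help ligands to be taken up, *Mib1*, the ubiquitin ligase that lets ligands signal, had log2 ratios of 1.16 and 1.49 and *Neurl1b*, another such ligase, of -0.65 and -0.57. The other *Mib1* probe above background was short of 1.5-fold, at mean log2 levels of 8.59 in Axin2+ and 8.12 in Axin2- cells. Among other ligands, *Dlk1*, a non-canonical one, had -1.68 and -1.77.

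Of 9 measured genes of receptor cleavage, 8 were lower on both arrays in Axin2+ cells, where 41.7% of all genes were lower and 41.1% higher on both. *Aph1a*, a subunit of γ-secretase, which makes the last cut of the receptor, had log2 ratios of -0.94 and -1.17 and was the only one of them past 1.5-fold. *Adam10*, the protease of the cut before it, stood at 0.046 and 0.12. Of 16 genes of the nuclear complex and corepressors, 11 were higher on both arrays and 1 was lower. The coactivator *Crebbp* had 0.58 and 0.75, and *Maml2* stood lowest at -0.22 and -0.12. Other *Crebbp* probes were short of 1.5-fold, at mean log2 levels of 7.24 in Axin2+ and 7.04 in Axin2- cells and, close to background, of 6.82 and 6.63. The other *Aph1a* probe was lower by more than 1.5-fold in the mean, at 7.21 and 7.86.

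Of 10 genes of inhibition and turnover, the ubiquitin ligases *Dtx4* (0.93 and 0.82) and *Nedd4* (0.79 and 0.86) were higher past 1.5-fold, and *Nedd4l* stood lowest at -0.37 and -0.52. The other *Dtx4* probes were short of 1.5-fold, at mean log2 levels of 8.23 in Axin2+ and 7.81 in Axin2- cells and of 9.02 and 8.44. Further *Nedd4* probes differed by more than 1.5-fold in the mean, at 7.84 and 6.71 and at 11.97 and 11.03. The next role holds Hes and Hey factors, other targets and the Tle corepressors. Of its 11 genes measured, *Sox9*, a crypt base transcription factor, had 0.65 and 0.73, and the corepressor *Tle3* stood lowest at -0.44 and -0.34. Further *Sox9* probes had mean log2 levels of 10.50 in Axin2+ and 9.62 in Axin2- cells and of 7.17 and 6.94. The other *Tle3* probe, at 7.33 and 7.26, was not lower. Of the 8 secretory fate factors, 6 were lower on both arrays. *Klf4*, a goblet cell factor, had -1.04 and -0.997, *Atoh1*, the target that Hes1 represses, had -0.19 and -0.55, and *Foxa1* stood highest at 0.35 and 0.42.

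In the colon of *Rspo3* KO mice, 66 of the 79 were measured as well, and 0 passed limma's adjusted p of 0.05, with 1 at an unadjusted p under 0.05. This gene was *Ascl2*, a stem cell factor, at -0.47 and -0.76. Its adjusted p with limma was 0.93, and it was also the only one past 1.5-fold alike, beside the 2.47% of all genes. Of the 66, 11 were higher in both pairs, 9 lower and 46 of opposite sign, and the median of the means was 0.0016. Over all genes 20.3% were higher in both pairs, 23.9% lower and 55.8% of opposite sign. *Nrarp*, a feedback inhibitor that Notch itself induces, stood lowest of its role at -0.63 and -0.39. *Dlk1* stood lowest among ligands at -0.48 and -0.16, *Mfng* among receptor modifiers at -0.47 and -0.014, *Aph1b* among cleavage genes at -0.15 and -0.24, and *Spdef* among secretory factors at -0.54 and -0.21. A second *Dlk1* probe, at mean log2 levels of 6.76 in KO and 6.74 in control mice, was not lower. Further *Aph1b* probes were split, at 8.15 and 8.24 and at 9.05 and 8.96.

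The highest of each role by brightest probe, none of which had an unadjusted limma p under 0.05, were *Notch4* (0.22 and 0.038), *Neurl3* (0.11 and 0.30), *Adam10* (0.20 and 0.33), *Kat2b* (1.20 and -0.080), *Nedd4* (0.55 and -0.048), *Id1* (-0.20 and 0.90) and *Foxa2* (0.18 and 0.057). For *Neurl3* and *Kat2b*, another probe above background went the other way. Its mean log2 levels were 8.66 in KO and 9.32 in control mice for *Neurl3*, and 7.72 and 8.14 for *Kat2b*. Further *Nedd4* probes were split, at 11.93 and 11.80 and at 7.96 and 8.32. That of *Id1* lay higher in KO, at 14.26 and 13.90. *Kat2b*, *Nedd4* and *Id1* changed sign between the pairs, as did the 3 Notch receptors and 55.8% of all genes.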

How the data were processed

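Labelled RNA was hybridised and scanned by the authors, who extracted the spots with Agilent Feature Extraction (version not given in the sources used here). Per spot, the authors deposited the mean and background intensity of each dye, a background- and dye-corrected log10 ratio (Cy5 to Cy3), its error (a score) and its p-value, which is the software's within 1 array and was not used. The same log10 ratios make up the series' value table. In the study, ratios were then combined in Resolver, which was not repeated here.

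With limma (version 3.58.1, R 4.3.3), background was corrected by normexp (offset 50, spots with background outliers kept out of the fit), log2 ratios were normalised by loess within arrays, outlier and control spots were left out, and ratios were turned to *Rspo3* KO over control or Axin2+ over Axin2-. Levels were made comparable between the arrays of an experiment by Aquantile. Probes were named through RefSeq's table for GRCm38.p6 (27668 by accession, 5589 by symbol, 471 by synonym), and 7446 kept their array name. Probe positions are mm9. The brightest probe stood for a gene if it was well above background on both arrays, in 1 channel or both. The *Rspo3* KO pairs were tested with lmFit and eBayes (1 residual and 6.755 prior degrees of freedom), with Benjamini-Hochberg adjustment over 15373 genes. Tested on simulated data of this comparison (5 runs over 15373 genes, 200 changed), between 98% and 100% of changes of 2 on the log2 scale and between 99% and 100% of changes of 3 passed the threshold, and 10.0% to 16.0% of calls were unchanged genes. The simulated spread was drawn from the fit itself, and changes as small as those of the members were not simulated. The share of such changes that would pass was therefore not tested. In the data, *Lgr5* at a mean of -1.94 had an adjusted p of 0.0996 with limma. The number of arrays limits the precision. The dye swap had no test. The members, gene lists and marker lists, and the exclusion of background outliers, were chosen with earlier results of these data known. All members are named with every probe, and of the other pathway genes those called and, per role, the largest and smallest mean ratio. *Atoh1* is named as a goblet cell marker, and 1 gene that this rule names is counted in its list but not reported here. The labels and the methods differ on how colon RNA was extracted. Alternatives were other background steps and offsets, the software's ratios, the series' table, median centring, other filters and probe rules, a dye term over all 4 arrays, each array left out and other thresholds.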

Additional observations from a re-analysis of the deposited data

How the results depend on the processing

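No paired analysis was possible because each array already holds 1 KO mouse against 1 control mouse, or 1 pool against the other, so a replicate number has no further pair. Over the alternatives other than leaving out an array, the mean of *Hes6* in Axin2+ over Axin2- cells turned to -0.065 with median centring and no other member's mean changed sign. In the *Rspo3* KO pairs no member passed limma's adjusted p of 0.05, and the lowest adjusted p of *Dll1* with limma was 0.11, with the dye term. That fit took in all 4 arrays, so its spread includes that of the dye swap of 1 pair of pools, which is not a spread between mice. The values that moved follow, and the cause was not tested. Genes called by limma in the KO pairs numbered 37, and 1 with all spots in the background fit, 127 with an offset of 16, 71 without background correction, 131 with the software's log ratios or the series' table, 8 with median centring, 0 without a filter on dim probes (395 lower and 296 higher past 1.5-fold there), 5 with the mean over probes and 281 with the dye term. The share of these calls that were higher was 54.1%, and 100% with all spots, 41.7% with an offset of 16, 42.7% with the software's ratios, 75% with median centring and 80% with the mean over probes. Genes past 1.5-fold alike in the KO pairs numbered 665, and 362 with all spots and 1471 with the software's ratios or the series' table, and 1555 to 2404 with 1 pair left out. The members past 1.5-fold there numbered 1, and 0 with all spots or median centring, and 1 to 4 with 1 pair left out. Other pathway genes past 1.5-fold there numbered 1, and 0 with all spots, 3 with an offset of 16, 4 with the software's ratios or the series' table, 2 with every probe a feature, and 4 to 8 with 1 pair left out; 1 of them was called by limma with the software's ratios or the series' table. For Axin2+ over Axin2-, 2348 genes were past 1.5-fold, and 5191 with the software's ratios or the series' table, 1090 with median centring and 671 past 2-fold. The members past it numbered 2, and 3, with *Notch3* added, with the software's ratios or the series' table, 1 with median centring, the mean over probes or 1.5-fold required on each array, 0 past 2-fold, and 1 to 2 with 1 array left out. Other pathway genes past it numbered 10, and 16 with the software's ratios, the series' table or every probe a feature, 3 with median centring and 4 past 2-fold. With 1 KO pair left out, values ran from -0.24 to 1.33 for *Jag1*, from -0.23 to 0.013 for *Jag2*, from -0.27 to 0.16 for *Notch1*, from -0.29 to 0.73 for *Notch2* and from -0.40 to 0.55 for *Notch3*, so the sign of each mean turned with 1 of its pairs. Members near background, such as *Notch3* in the sorted cells, have ratios that the offset limits.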
